A study of Mus musculus with 6 samples.

Results

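The genes described here are 32 genes of the unfolded protein response and the chaperone machinery of the endoplasmic reticulum (ER), read in mouse hepatic stellate cells after 3 h with forskolin. They are the rows of the deposited count table whose gene symbol is on a fixed list, 32 of 24940 rows, and all 32 symbols were found. Stellate cells are liver pericytes that store vitamin A and become matrix-secreting myofibroblasts in fibrosis. They were isolated from livers of wild-type female mice of the strain labelled C57BL6/JBomTac and kept in culture for 2 days. In the forskolin group, 3 libraries (A, B and C), the cells were then given 5 µM forskolin in the medium for 3 h. This diterpene raises cAMP by acting on adenylyl cyclase itself. In the DMSO group, also 3 libraries (A, B and C), the same volume of the solvent was added for 3 h. Both groups thus share the way of isolation, the time in culture and the strain, and neither the age of the mice nor whether cells of several animals were pooled is given in the sources used here. The labels do not say that replicates came from separate isolations, so the p-values speak for the spread among these 6 samples alone, and that spread may be technical.

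Proteins that enter the secretory pathway are folded in the ER by chaperones, lectins and disulfide isomerases, and those that fail are sent back to the cytosol for degradation. When unfolded protein builds up, 3 sensors in the ER membrane signal to the nucleus: IRE1 (gene Ern1) splices the mRNA of the transcription factor XBP1, PERK (Eif2ak3) phosphorylates the initiation factor eIF2 and so favours translation of ATF4, and ATF6 is cut in the Golgi to release a transcription factor. XBP1 and ATF6 raise chaperone and degradation genes, while ATF4 and its target CHOP (Ddit3) raise genes of amino acid supply and stress. Stellate cells that turn to collagen production are heavy users of this machinery.

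Column totals of the deposited table ran from 2770628.5 to 10607997 counts, and the C library was the shallowest of each group. The treatment check was clear: 9 of 10 listed cAMP response genes rose by edgeR's quasi-likelihood test, among them the nuclear receptor gene Nr4a1, which had 41.6 ± 0.839 CPM in DMSO and 455 ± 54.9 CPM after forskolin (SD, n = 3 each, log2 fold change 3.44 ± 0.13 SE, adjusted p = 4.48e-07). CPM are counts scaled to a common library size, with TMM factors, except that cell type markers were scaled by column totals alone. Summed stellate cell markers stood at 1855 to 2159 CPM in DMSO and 1904 to 2323 CPM with forskolin. Single markers of that list differed in both directions, with no overlap between the groups for Lrat, an enzyme of vitamin A storage (8.74 to 11.7 CPM in DMSO, 5.42 to 7.71 with forskolin), or for the growth factor gene Hgf (16.03 to 27.2 and 64.1 to 86.1 CPM). In bulk RNA, fewer cells of a type and less RNA per cell cannot be told apart.

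No member passed the test in either direction. Of the 32 genes, 31 had enough counts to be tested (Derl3 had not), and 0 of 31 were called by edgeR at a Benjamini-Hochberg adjusted p of 0.05 over all genes, where 2.8% of the 12233 tested genes were called, 2.22% higher and 0.572% lower. With so small a share, 0 of 31 does not set the members apart from other genes. At an unadjusted p of 0.05, 3 members (Xbp1, Ddit3 and Trib3) passed, beside 12.1% of all tested genes. DESeq2 and limma-voom called Xbp1 and Trib3, 2 members each, beside 3.52% and 3.94% of the genes that each tool tested. The likelihood ratio test of edgeR called Xbp1, Ddit3 and Trib3, beside 5.3% of all tested genes. In all these fits the called members were higher with forskolin. Values did not overlap between the groups for 5 of 31 members (16.1%), all of them higher, beside 20.2% of all tested genes (10.7% higher and 9.46% lower).

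For most of the genes the 95% interval, taken gene by gene over these 6 samples, lay within 2-fold in either direction. A gene that was not called may still have changed within its interval. The 95% interval of the fold change lay within 1.5-fold in both directions for 16 of 31 members and within 2-fold for 28 of 31. Fitted log2 fold changes of the 31 genes ran from −0.088 to 0.90 with a median of 0.17, beside a median of 0.005 over all tested genes. They were above zero for 26 members and below it for 5, beside 6211 and 6022 of all tested genes. When libraries were scaled by their totals alone, the members stood at 25 and 6. All members were read in the same 6 libraries, so their signs are not independent of each other. The plot of levels by library shows how the members spread over the 6 libraries.

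**Figure D1:**
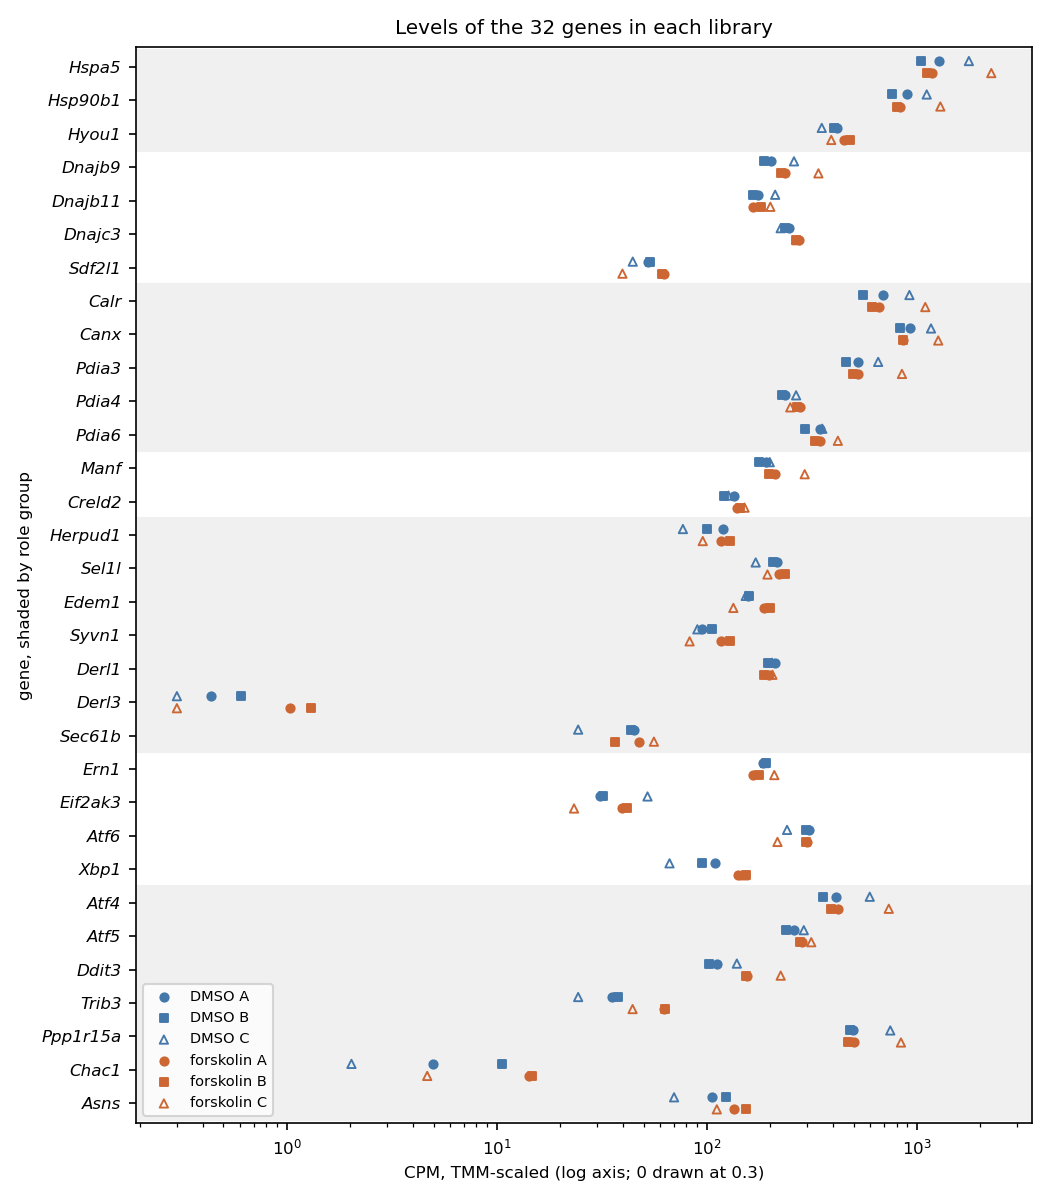
Level of each of the 32 genes in each library, as TMM-scaled CPM on a log axis; blue symbols are DMSO and orange symbols forskolin, circles A, squares B and open triangles C, and counts of 0 (Derl3 in both C libraries) are drawn at the left. Xbp1, Ddit3, Trib3, Dnajc3 and Creld2 are the 5 tested genes whose forskolin values all lie above the DMSO values, and the C libraries lie apart from A and B for Hspa5, Calr and Atf4 in both groups.

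The C libraries stood apart from A and B, in a way that followed how densely a gene was covered. Among the 17 members with at least 0.5 reads per base of transcript on average, 13 had their highest CPM in library C in both groups (76.5%, beside 62.1% of the 1213 tested genes of that coverage). Among the 14 members under it, 0 did (15.2% of tested genes of that coverage), and 9 had their lowest CPM in C in both groups (64.3%, beside 27.4%). Hspa5, at 3.41 reads per base the most densely covered member, was higher in C than in the mean of A and B by 0.61 in DMSO and by 0.98 with forskolin on the log2 scale. Trib3, at 0.169 reads per base, was at −0.57 and −0.49. The limit of 0.5 reads per base was chosen after values were seen, and the part of coverage or depth in the members' values was not tested.

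**Figure D2:**
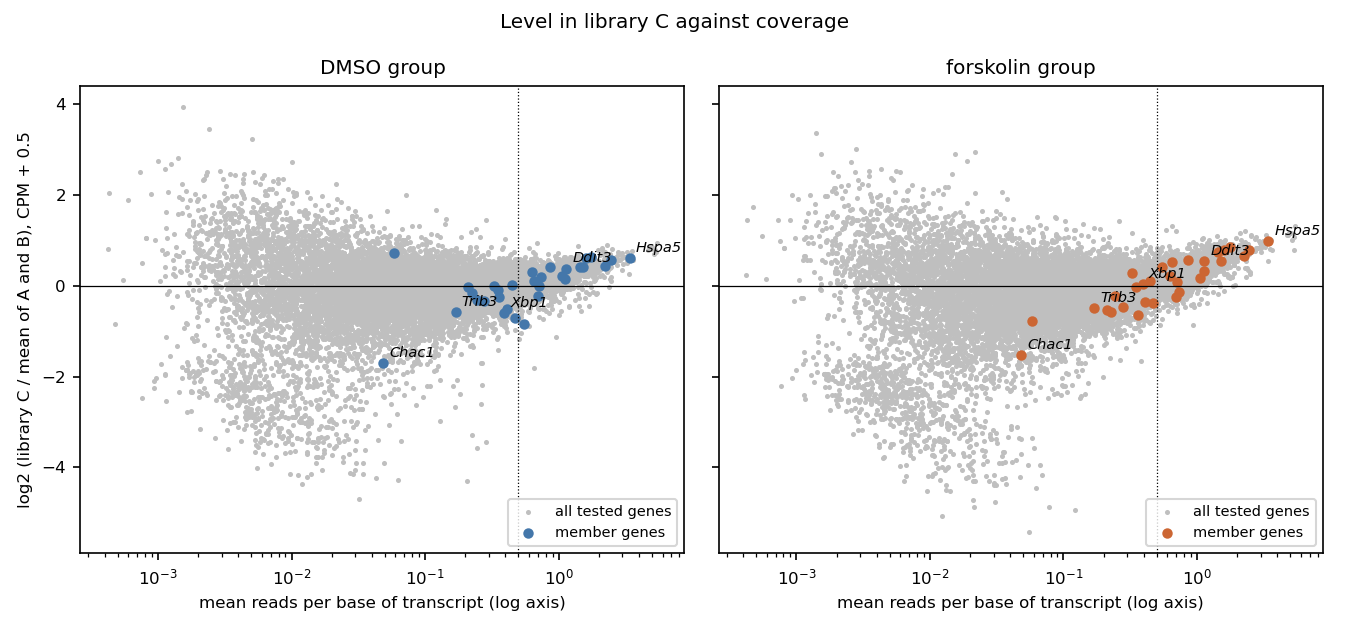
Level in library C relative to the mean of A and B (log2 of CPM plus 0.5) against mean reads per base (log axis), for all tested genes in grey and the 31 tested members in colour, by group. The dotted line marks 0.5 reads per base, and 13 of the 17 members to its right had their highest value in C in both groups.

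A fit without both C libraries called more members. Of 31, 5 were called higher (16.1%) and 0 lower, beside 9.76% of the 12597 genes tested in that fit (5.86% higher). They were Trib3 at 0.77 ± 0.14, Ddit3 at 0.53 ± 0.09, Xbp1 at 0.53 ± 0.10, Asns at 0.33 ± 0.10 and Edem1 at 0.30 ± 0.08 (log2 fold change ± SE, edgeR adjusted p from 3.15e-04 to 0.0413). The median log2 fold change of the members in that fit was 0.16, beside −0.005 over all genes tested in it. The ER chaperones Hspa5, Hsp90b1 and Canx were at −0.023, −0.025 and −0.031. The other listed chaperones, co-chaperones and isomerases were above zero, from 0.024 (Dnajb11) to 0.24 (Dnajb9), and none was called. In the A and B libraries alone, values did not overlap for 17 tested members with forskolin higher (54.8%) and for 1 with forskolin lower (Ern1), beside 25.5% and 23.6% of all tested genes.

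**Figure D3:**
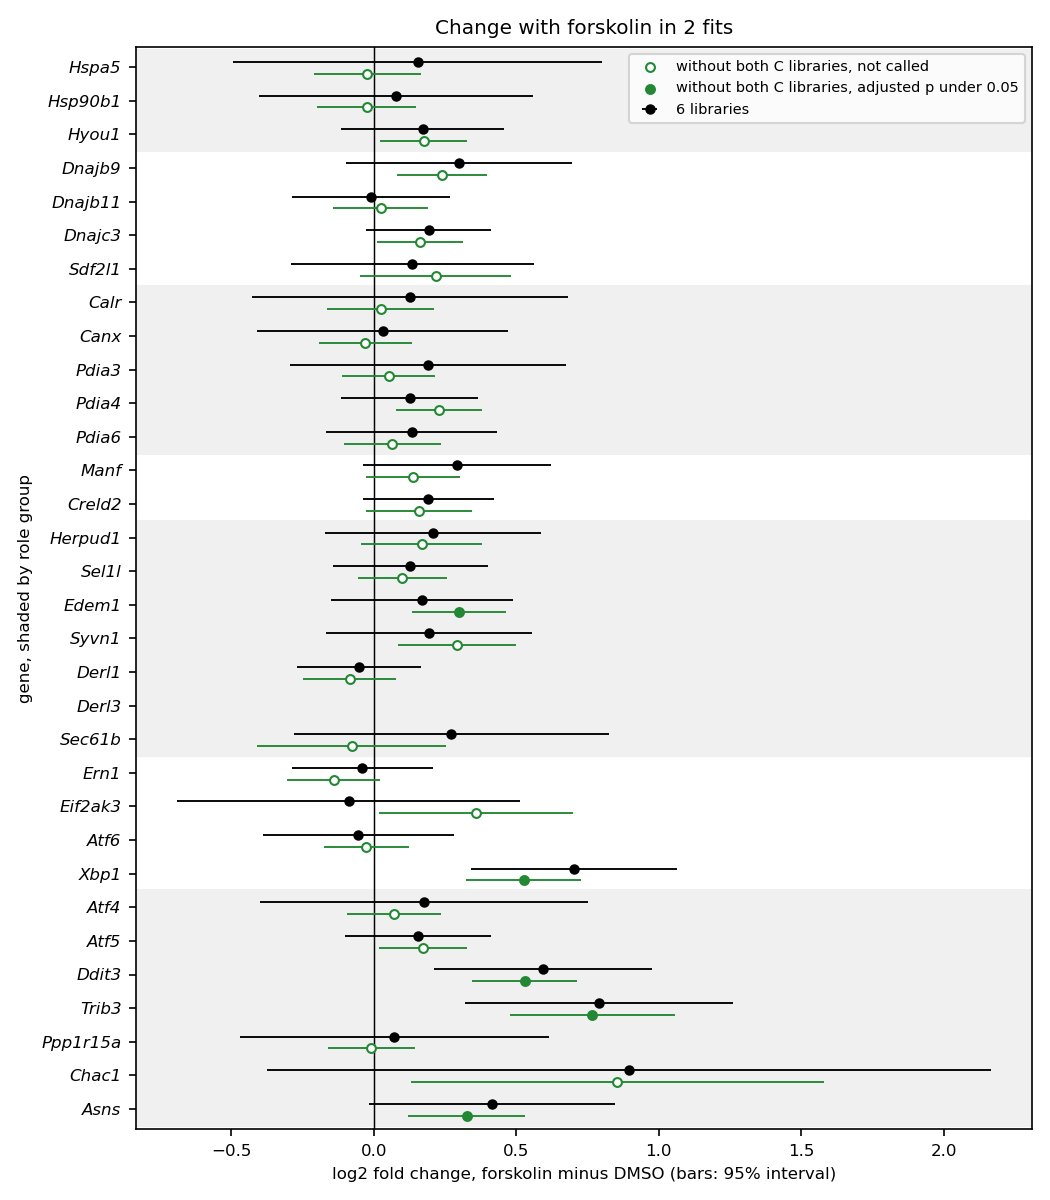
Log2 fold change of each gene, forskolin minus DMSO, with its 95% interval, in the fit of all 6 libraries (black) and without both C libraries (green, filled where the adjusted p was under 0.05). In the 6-library fit the intervals of Xbp1, Ddit3 and Trib3 lie above zero, and none of the 31 genes passed the adjusted threshold.

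The HSP70 and HSP90 chaperones of the ER lumen were among the most abundant transcripts of these cells and gave no call. Per kilobase of transcript, Hspa5 had the highest level of all members, 522 ± 141 CPM per kilobase in DMSO (SD, n = 3), above 99.9% of tested genes over the 6 libraries. Calr at 374 ± 96.2 and Hsp90b1 at 337 ± 65.3 CPM per kilobase came next, and the ranges of these 3 genes over the DMSO libraries overlapped. Hspa5 encodes BiP, the HSP70 chaperone that also holds the stress sensors inactive; its row lies on chromosome 2, 34772090 to 34776529 (mm10). Its level was 1269, 1048 and 1768 CPM in DMSO A, B and C, and 1175, 1113 and 2260 CPM in forskolin A, B and C. The groups overlapped, and the C library was the highest of each. The fold change was 1.11, with a 95% interval from 0.710 to 1.74 (adjusted p = 0.924). Hsp90b1, the ER HSP90 called GRP94 (chromosome 10), had 896, 759 and 1114 CPM in DMSO and 827, 805 and 1293 CPM with forskolin. These groups overlapped too (fold change 1.06, interval 0.756 to 1.47, adjusted p = 0.954). Hyou1, a large HSP110-like chaperone that helps BiP release nucleotide, ran from 352 to 418 CPM in DMSO and from 391 to 483 CPM with forskolin (log2 fold change 0.17 ± 0.13, adjusted p = 0.715). Without forskolin C the values of Hspa5 and Hsp90b1 turned to −0.24 and −0.17, and without DMSO C they were 0.38 and 0.23.

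Many of these chaperone genes share a promoter element that the list did not use. The ER stress response element (ERSE, CCAAT and CCACG with 9 bases of any kind between them, searched on both strands) is bound by ATF6 together with NF-Y. An exact match lay in the RefSeq promoters (GRCm38.p6, 250 bases before to 50 after the start) of 9 of 28 members with a promoter entry (32.1%), beside 0.119% of all 32851 promoters in that table. ERSE-II (ATTGG and CCACG with 1 base between them, both strands) was in 2 of 28, Dnajb11 and Herpud1, beside 0.0365% of all. The element was first defined on chaperone promoters such as that of Hspa5, so this overlap is no independent observation, and a match is not a shown binding site. The matches below are printed 5′ to 3′ on the strand of the gene, with the element in capitals and 12 bases on either side, to show the letters that these genes share; in Calr, Creld2 and the second Hsp90b1 match the element runs on the opposite strand.
Hspa5 (chr2:34772013-34772055, 65 bases before the start): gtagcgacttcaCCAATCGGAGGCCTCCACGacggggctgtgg
Hsp90b1, first (chr10:86705626-86705668): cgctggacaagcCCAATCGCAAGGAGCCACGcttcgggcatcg
Hsp90b1, second (chr10:86705521-86705563): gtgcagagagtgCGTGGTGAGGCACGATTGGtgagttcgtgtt
Calr (chr8:84847063-84847105): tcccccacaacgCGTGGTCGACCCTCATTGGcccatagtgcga
Canx (chr11:50325788-50325830): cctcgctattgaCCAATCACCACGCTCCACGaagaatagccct
Pdia6 (chr12:17266479-17266521): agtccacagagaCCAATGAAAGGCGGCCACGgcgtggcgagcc
Dnajc3 (chr14:118937815-118937857): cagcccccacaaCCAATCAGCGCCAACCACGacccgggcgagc
Creld2 (chr15:88819508-88819550): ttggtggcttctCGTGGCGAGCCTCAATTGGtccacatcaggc
Syvn1 (chr19:6046520-6046562): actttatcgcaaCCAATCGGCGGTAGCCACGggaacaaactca
Herpud1, ERSE-II (chr8:94386365-94386399): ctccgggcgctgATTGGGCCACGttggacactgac
The ninth gene with an ERSE match was Derl3. Of the 10 tested members with an ERSE or ERSE-II match, 0 were called by edgeR in the 6-library fit (2.8% of all tested genes). At that share, 0 of 10 does not set these genes apart. Their log2 fold changes ran from −0.011 to 0.21, with a median of 0.14, and their smallest adjusted p was 0.503.

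The co-chaperones that serve BiP also gave no call. Dnajc3, the J-domain protein p58IPK, had 247, 236 and 225 CPM in DMSO and 276, 266 and 267 CPM with forskolin. All forskolin values were above all DMSO values, by little: the fold change was 1.14 with an interval from 0.981 to 1.33 (adjusted p = 0.503). Dnajb9 (ERdj4), which guides BiP to IRE1, was at 0.30 ± 0.18 on the log2 scale (adjusted p = 0.6), Dnajb11 (ERdj3) at −0.011 ± 0.12 and Sdf2l1, a partner of ERdj3, at 0.13 ± 0.19. Sdf2l1 had its lowest value of each group in library C, and Dnajb9 and Dnajb11 their highest.

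Lectin chaperones and disulfide isomerases gave no call, and each may still have changed within its interval. Calreticulin, Calr, and its membrane-bound relative calnexin, Canx, hold newly made glycoproteins, and Pdia3 (ERp57) forms disulfide bonds in their clients. Calr (chromosome 8, 84842088 to 84846931) had 690, 554 and 921 CPM in DMSO and 657, 612 and 1096 CPM with forskolin. The groups overlapped, and C was again the highest library in both (fold change 1.09, interval 0.743 to 1.6, adjusted p = 0.929). Canx was at 0.031 ± 0.20 and Pdia3 at 0.19 ± 0.22 on the log2 scale. The BiP-linked isomerases Pdia4 (ERp72) and Pdia6 (P5) were both at 0.13, with SE of 0.11 and 0.14. The adjusted p of these 5 genes ran from 0.768 to 0.986. Without both C libraries Pdia4 was at 0.23 ± 0.07 (adjusted p = 0.0522).

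Manf and Creld2, small soluble proteins of the ER lumen that are secreted under stress, were at 0.29 ± 0.15 and 0.19 ± 0.10 on the log2 scale (adjusted p = 0.496 and 0.537). Creld2 had 134, 120 and 127 CPM in DMSO and 140, 145 and 151 CPM with forskolin, without overlap between the groups. Manf overlapped by 1 library, since forskolin B at 197 CPM lay under DMSO C at 199 CPM.

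Genes of ER-associated degradation gave no call in the 6-library fit. Herpud1, a scaffold of the degradation complex (chromosome 8, 94386429 to 94395371), had 119, 100.1 and 76.9 CPM in DMSO and 117, 129 and 95.6 CPM with forskolin. The groups overlapped and the C library was the lowest of each (fold change 1.15, interval 0.888 to 1.5, adjusted p = 0.756). Sel1l and Syvn1 (HRD1), the core of the ubiquitin ligase in the ER membrane, were at 0.13 ± 0.12 and 0.19 ± 0.16 on the log2 scale. Edem1, a lectin that delivers misfolded glycoproteins, was at 0.17 ± 0.14. Derl1, a channel protein, was at −0.052 ± 0.10, and Sec61b, a subunit of the translocon through which proteins enter the ER, at 0.27 ± 0.25. Edem1 had 188, 201 and 134 CPM with forskolin and 156, 158 and 153 CPM in DMSO: forskolin A and B were above every DMSO library, and forskolin C was below them. Derl3, a derlin of secretory cells, had 3, 6 and 0 counts in DMSO and 10, 14 and 0 counts with forskolin, too few to be tested.

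The 3 sensor genes were not called, and Xbp1 stood next to the threshold. Per kilobase, Ern1 (IRE1) was at 47.8 ± 0.67, Atf6 at 37.9 ± 4.82 and Eif2ak3 (PERK) at 8.55 ± 2.67 CPM per kilobase in DMSO, so that Eif2ak3 was the lowest of the sensors, beyond the spread of the other two. Ern1 (chromosome 11) had 186, 191 and 189 CPM in DMSO and 167, 177 and 209 CPM with forskolin. Its forskolin values lay on both sides of the DMSO values (fold change 0.973, interval 0.819 to 1.15, adjusted p = 0.955). Eif2ak3 (chromosome 6) had 30.9, 32 and 52.2 CPM in DMSO and 39.4, 41.6 and 23.3 CPM with forskolin. The C libraries ran against A and B here: DMSO C was the highest and forskolin C the lowest of all 6. The fold change of Eif2ak3 was 0.941 (interval 0.619 to 1.43, adjusted p = 0.962), and without both C libraries its log2 fold change was 0.36 ± 0.16 (adjusted p = 0.212). Atf6 was at −0.054 ± 0.15 on the log2 scale, with overlapping groups.

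Xbp1, the transcription factor gene that IRE1 acts on, was at 109, 94.6 and 66.4 CPM in DMSO A, B and C, and at 140.0, 153 and 151 CPM in forskolin A, B and C. Every forskolin library was above every DMSO library, and the DMSO C library was the lowest. The log2 fold change was 0.70 ± 0.16 (fold change 1.63, interval 1.27 to 2.09), with an adjusted p = 0.0521. Over 17 alternative analyses the log2 fold change ran from 0.53 to 0.86 and the adjusted p from 1.01e-04 to 0.182; 8 of them called Xbp1, RLE scaling with an adjusted p = 0.0482 and DESeq2 with an adjusted p = 0.00922 among them. None of the 6 fits that left out 1 library called it (adjusted p from 0.0519 to 0.182). The table has 1 row per gene, so spliced and unspliced Xbp1 mRNA are not separated and IRE1 activity cannot be read from it. The 250 bases before the Xbp1 start (chr11:5520391-5520640, RefSeq, GRCm38.p6) are printed beside those of Hspa5 (chr2:34771840-34772089) because these genes differ in their promoter letters; capitals mark the ERSE parts CCAAT and CCACG on either strand, which 37.4% and 32.8% of all promoters hold.
Hspa5: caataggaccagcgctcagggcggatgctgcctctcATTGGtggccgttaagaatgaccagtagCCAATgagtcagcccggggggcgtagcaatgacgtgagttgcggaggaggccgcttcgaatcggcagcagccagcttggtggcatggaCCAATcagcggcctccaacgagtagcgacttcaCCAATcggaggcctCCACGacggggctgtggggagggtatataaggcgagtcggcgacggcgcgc
Xbp1: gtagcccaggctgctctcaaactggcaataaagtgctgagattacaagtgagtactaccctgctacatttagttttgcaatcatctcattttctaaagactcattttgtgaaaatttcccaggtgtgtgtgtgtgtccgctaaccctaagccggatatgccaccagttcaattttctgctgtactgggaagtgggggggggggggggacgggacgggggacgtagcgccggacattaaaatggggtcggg
Neither of these parts is in this Xbp1 window, which says only that these letters are not in it.

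The PERK branch and the wider integrated stress response held 4 of the 5 largest fitted differences of the members, in Chac1, Trib3, Ddit3 and Asns, and none passed; the other was Xbp1. Atf4, the transcription factor whose translation rises when eIF2 is phosphorylated (chromosome 15, 80255184 to 80257545), had 410, 357 and 596 CPM in DMSO and 419, 388 and 735 CPM with forskolin. The groups overlapped and C was the highest library in both (fold change 1.13, interval 0.757 to 1.68, adjusted p = 0.89). Atf5, a related factor, was at 0.16 ± 0.11 on the log2 scale (adjusted p = 0.708).

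Ddit3, which encodes the stress factor CHOP (chromosome 10, 127290793 to 127296288), had 112, 102 and 139 CPM in DMSO and 155, 154 and 225 CPM with forskolin. All forskolin values were above all DMSO values, and C was the highest library of both groups. The log2 fold change was 0.60 ± 0.17 (fold change 1.51, interval 1.16 to 1.97, adjusted p = 0.132), and over the 17 alternatives the adjusted p ran from 3.15e-04 to 0.449, with 5 calls. Trib3, a pseudokinase that CHOP and ATF4 induce (chromosome 2, 152337425 to 152344060), had 35.4, 37.7 and 24.4 CPM in DMSO and 62.2, 62.9 and 44.3 CPM with forskolin. The groups did not overlap, and C was the lowest library of both. Its log2 fold change was 0.79 ± 0.21 (fold change 1.73, interval 1.25 to 2.39, adjusted p = 0.0983); the adjusted p ran from 6.94e-04 to 0.395 over the alternatives, with 8 calls.

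Asns, asparagine synthetase and a standard ATF4 target, had 106, 123 and 69.8 CPM in DMSO and 135, 153 and 112 CPM with forskolin (log2 fold change 0.42 ± 0.19, adjusted p = 0.444). Forskolin C lay below DMSO B, so the groups overlapped; without both C libraries the adjusted p was 0.0413. Chac1, a glutathione-degrading enzyme downstream of ATF4, was the least abundant tested member, at 4.96, 10.64 and 2.03 CPM in DMSO and 14.2, 14.7 and 4.66 CPM with forskolin. Its fold change of 1.86 had the widest interval of all members, from 0.771 to 4.49 (adjusted p = 0.636), and without DMSO B its log2 fold change was 1.64, against 0.90 with all 6 libraries. Ppp1r15a (GADD34), the phosphatase subunit that reverses eIF2 phosphorylation, was at 0.072 ± 0.24 on the log2 scale (adjusted p = 0.966), with overlapping groups. Its promoter was the only one of the 28 to hold an exact cAMP response element (CRE, TGACGTCA, the site of CREB), which 1.79% of all promoters hold, and the window is shown for that reason, with the CRE in capitals.
Ppp1r15a (chr7:45526261-45526292): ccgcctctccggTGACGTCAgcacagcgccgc
The unfolded protein response element (TGACGTGG) and the composite C/EBP-ATF element (TGATGNAAT) had no exact match in the 28 promoters, and were in 0.676% and 0.965% of all. Only these letters were searched, on both strands, so other forms of either element were not counted. The Hspa5 stretch printed above holds tgacgtga, which differs from TGACGTGG in its last letter.

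Other genes of the pathway were read from 9 further lists. ATF4 and CHOP targets outside the members held 4 of 27 tested genes that rose and 0 that fell (14.8%, beside 2.8% of all tested genes), with a median log2 fold change of 0.23. The list was chosen with earlier results of these data known, so this share is no independent observation. Which factor raised these genes was not tested. Cebpb, a C/EBP transcription factor that is also a known CREB target, had 77.0, 80.1 and 89.1 CPM in DMSO and 201, 182 and 250 CPM with forskolin (log2 fold change 1.36 ± 0.14, adjusted p = 3.11e-04). Atf3, a stress-induced repressor, rose from 79.9 ± 4.08 to 181 ± 28.0 CPM, and Ddit4 (REDD1), an inhibitor of mTORC1, from 85.2 ± 27.2 to 214 ± 8.90 CPM (SD, n = 3 per group). Gdf15, a secreted stress cytokine named here after its value was seen, rose by 0.95 ± 0.15 on the log2 scale (adjusted p = 0.00496). These 4 calls held in all 17 alternatives. Without both C libraries, 9 of the 27 were called higher and 0 lower (33.3%, beside 9.76% of all genes tested in that fit).

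Of 21 further ER-associated degradation genes, 1 rose (4.76%, beside 2.8% of all tested genes) and 0 fell. It was Man1b1, the ER mannosidase that marks slow-folding glycoproteins for degradation, with 118, 122 and 101 CPM in DMSO and 195, 209 and 152 CPM with forskolin. The groups did not overlap (log2 fold change 0.71 ± 0.14, adjusted p = 0.0201). This call was lost without forskolin A or B (adjusted p = 0.116 and 0.106), without DMSO A, B or C (0.0902, 0.0761 and 0.0681), and with libraries scaled by their totals (0.0695).

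The other 7 lists gave no call by edgeR in the 6-library fit: 0 of 28 further ER folding enzymes, 0 of 26 genes of the translocon, signal peptidase and oligosaccharyltransferase, 0 of 23 of ER-Golgi traffic, 0 of 13 further sensors and partners, 0 of 15 eIF2 genes, 0 of 20 aminoacyl-tRNA synthetases and 0 of 22 heat shock genes of the cytosol and mitochondria. At an unadjusted p of 0.05 they held 2, 0, 2, 3, 1, 1 and 1 genes, in that order, beside 12.1% of all tested genes. Without both C libraries, 9.76% of all tested genes were called (5.86% higher and 3.9% lower), and calls were made in 6 of these 7 lists. They were 5 of 15 further sensors and partners (33.3%, 2 higher and 3 lower) and 5 of 22 heat shock genes (22.7%, 4 higher and 1 lower). Under the share of all genes were 2 of 28 folding enzymes (7.14%, 1 higher and 1 lower). So was 1 gene each, higher, of ER-Golgi traffic (4.35%), eIF2 (6.67%) and the synthetases (5%). In that fit, 3 of the 21 further degradation genes were called (14.3%, 2 higher and 1 lower). Serpinh1, the collagen chaperone HSP47, had 645 ± 52.3 and 626 ± 21.4 CPM in DMSO and forskolin libraries, and P4hb, protein disulfide isomerase and a subunit of collagen prolyl hydroxylase, 654 ± 69.95 and 733 ± 150 CPM (SD, n = 3 per group). Eprs, the glutamyl-prolyl-tRNA synthetase gene, had 505, 495 and 560 CPM in DMSO and 733, 718 and 758 CPM with forskolin, without overlap (log2 fold change 0.50 ± 0.12, adjusted p = 0.0683). Nars, asparaginyl-tRNA synthetase, was at −0.0029 ± 0.17 on the log2 scale, and the cytosolic HSP90 genes Hsp90ab1 and Hsp90aa1 at 0.02 ± 0.35 and 0.032 ± 0.33. The most abundant genes of the remaining lists, Sec61a1 and Ssr3, Surf4 and Copa, Tmbim6 and Nfe2l1, and Ppp1ca and Ppp1r15b, had log2 fold changes between 0.0069 and 0.22.

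**Figure D4:**
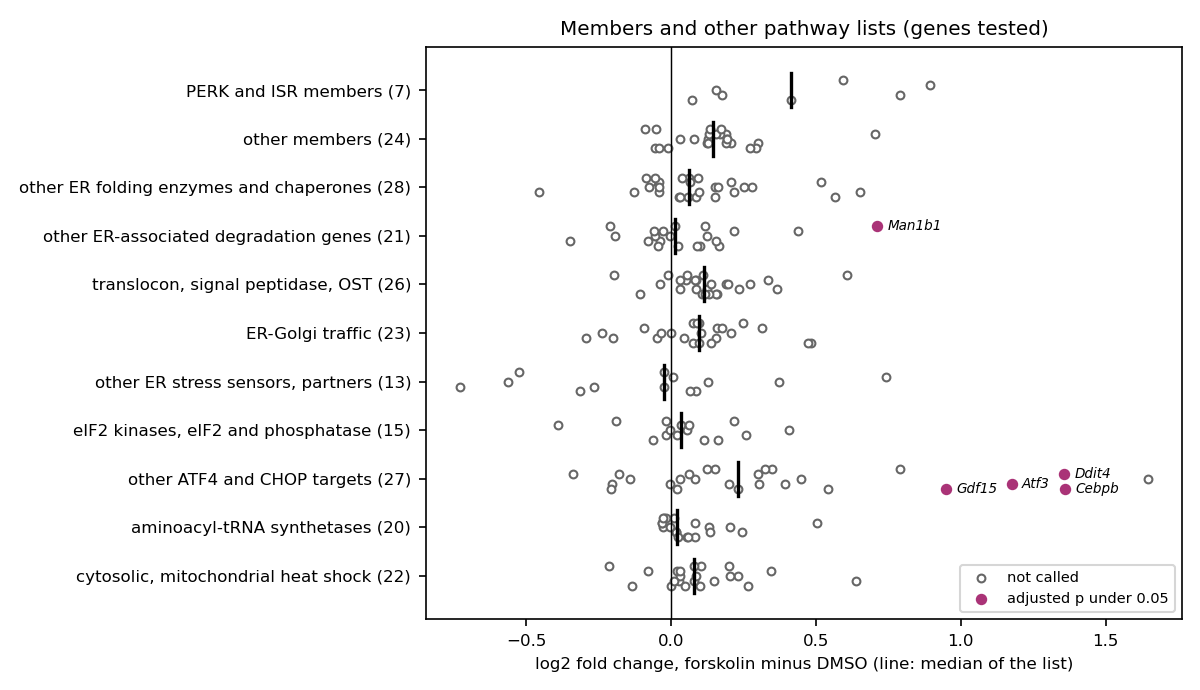
Log2 fold change, forskolin minus DMSO, of the tested members (the PERK and integrated stress response genes, 7, above the other 24) and of 9 further lists, 1 point per gene and a line at each list's median; filled points are genes with an adjusted p under 0.05 in the 6-library fit. The called genes are Cebpb, Ddit4, Atf3 and Gdf15 among ATF4 and CHOP targets and Man1b1 among degradation genes, and most other points lie near zero.

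Marker genes of other cells were low, and the hepatocyte list moved with the groups. The 10 hepatocyte markers summed to 19.5 to 28.9 CPM in DMSO and to 51.3 to 67.7 CPM with forskolin. Most of this was Trf, transferrin, at 12.1 to 20.3 and 32.7 to 53.8 CPM; the other 9 summed to 7.44 to 10.1 and 7.97 to 18.6 CPM, and albumin, Alb, stood at 2.70 to 5.48 and 1.58 to 7.40 CPM. Macrophage markers summed to between 18.7 and 21.6 CPM in DMSO and to between 14.2 and 18.3 CPM after forskolin, with Tyrobp at 0. Cholangiocyte markers gave 12.1 to 19.8 CPM in DMSO and 8.66 to 43.9 CPM after forskolin, with Krt7 at 0, and endothelial markers 5.11 to 11.6 and 6.5 to 7.07 CPM. Lymphocyte markers of T and NK cells, neutrophil markers and mesothelial markers each stayed at or under 4.05 CPM in every library. Of plasma and B cell markers, whose cells carry high levels of Xbp1 and Derl3, the sum was 12.6 to 23.3 CPM in DMSO and 12.1 to 20.2 CPM after forskolin, and Jchain, Mzb1 and Ms4a1 were at 0 in all 6 libraries. The part of these markers in the members' values was not tested.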

How the data were processed

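Polyadenylated RNA of 6 stellate cell cultures was sequenced from unstranded libraries, per the labels' protocols. The authors deposited unadjusted exon counts, 1 row per gene. STAR, HOMER and mm10 are named in the submitters' processing notes, without roles or versions; the handling of duplicates and the annotation used are not stated in the labels. The deposited expected counts come in steps of 0.5 and were rounded to whole numbers.

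Tests used R 4.3.3 with edgeR 4.0.16: filterByExpr (12233 genes), TMM, and the robust quasi-likelihood F test, with Benjamini-Hochberg adjustment over all tested genes and calls at 0.05. Adjusted p-values are edgeR's unless another tool is named. Standard errors are the absolute log2 fold change over the square root of F, and 95% intervals use the matching t distribution. Marker sums and the values of single markers are counts over column totals. A floor of 3 counts equals 0.279 to 1.17 CPM, for counting error only. Alternatives also used DESeq2 1.42.0 and limma 3.58.1. The fit was tested on counts simulated with the depths of these libraries and a common dispersion. It called 47 of 97 genes changed 2-fold and 95 of 95 genes changed 4-fold.

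Members and lists were chosen with earlier results of these data known. Values per library are given for members with an unadjusted p under 0.05, for 9 fixed genes (Hspa5, Hsp90b1, Calr, Xbp1, Herpud1, Atf4, Ddit3, Ern1 and Eif2ak3) and, after values were seen, for Dnajc3, Creld2, Edem1, Asns and Chac1. From other lists, up to 3 called genes by p, or else the 2 most abundant, are named, and Eprs, which is 1 of those. Promoters came from RefSeq (GRCm38.p6); 28 of 32 members had an entry.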

Additional observations from a re-analysis of the deposited data

How the results depend on the processing

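Over 17 alternatives, 527 log2 fold changes of the 31 tested members gave 470 with the same direction and side of the threshold, 24 newly called, 0 lost and 33 of the opposite sign, in 12 genes. Members called were 0 in the 6-library fit, 1 with RLE factors (Xbp1), 2 with DESeq2, 2 with limma-voom, 3 with no filter, 3 with the likelihood ratio test, 3 with sample quality weights and 5 without both C libraries, all higher; without 1 library at a time they were 0 to 1 (Trib3, without forskolin C). The 342 calls over all 12233 tested genes (2.8%) became 354 with RLE factors, 648 with the likelihood ratio test (5.3%) and 984 with quality weights, of the same 12233. They were 482 of 12233 with limma-voom (3.94%), 480 of 13652 with DESeq2 (3.52%) and 620 of 18738 with no filter. Without both C libraries they were 1229 of 12597 (9.76%), and without 1 library 185 to 485. With no filter and with DESeq2, 32 members were tested. With the replicate letter as a block, edgeR called 4 members (Xbp1, Trib3, Ddit3 and Asns, the last with an adjusted p = 0.0454) and 649 of 12233 genes. Deviations of same-letter libraries correlated at 0.0476, 0.133 and 0.150 for A, B and C. The best correlation of forskolin A, B and C with a DMSO library of another letter was 0.103, 0.0844 and −0.0797. B and C thus matched their own letter best and A did not. The labels name no pairing, so the letters are not taken as pairs.

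Signs turned without both C libraries for Hspa5 (−0.023), Hsp90b1 (−0.025), Dnajb11 (0.024), Canx (−0.031), Sec61b (−0.078), Eif2ak3 (0.36) and Ppp1r15a (−0.0086); with quality weights for Hsp90b1 (−0.014), Canx (−0.033), Eif2ak3 (0.27) and Ppp1r15a (−0.013); with limma-voom for Eif2ak3 (0.14); and with library totals for Canx (−0.013). Without 1 library the log2 fold change ran from −0.24 to 0.38 for Hspa5, −0.17 to 0.23 for Hsp90b1, −0.080 to 0.094 for Dnajb11, −0.18 to 0.33 for Calr, −0.17 to 0.18 for Canx, −0.087 to 0.34 for Pdia3, −0.13 to 0.030 for Ern1, −0.24 to 0.18 for Eif2ak3, −0.15 to 0.079 for Atf6, −0.16 to 0.41 for Atf4 and −0.23 to 0.30 for Ppp1r15a. Without both C libraries fewer samples were fitted; the cause of the other shifts was not tested. Derl3, with at most 14 counts in a library, had too few to be tested.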
